A study of Mus musculus with 88 samples.

Results

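Cluster 5 is a group of 315 of the 4949 single cells in the table, taken as every cell that the study's own clustering at resolution 2.5 placed in that cluster. Of these 315 cells 251 were Jarid2 null, 63 were Mtf2 null and 1 was wild type (WT), and no Eed null cell was among them. It was set against all other 4634 cells and against cluster 12 (228 cells) and cluster 7 (292 cells), which hold mainly WT cells, and cluster 17 (125 cells), which holds Jarid2 null and Mtf2 null cells. Nanog and Otx2 were taken as its markers.

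Mouse embryonic stem cells (mESCs) of 4 genotypes (WT and lines that lack Mtf2, Jarid2 or Eed) were grown in serum with LIF, a cytokine that holds them undifferentiated, and then aggregated into embryoid bodies (EBs) that differentiated without LIF. Viable cells were sorted into plates on days 0, 4, 7 and 10, with 1 library for each genotype and day, so that 16 libraries entered. MTF2 and JARID2 are accessory subunits of Polycomb repressive complex 2 (PRC2), which places a repressive methyl mark on histone H3, and EED is one of its core subunits. The labels give E14 as the strain of every single-cell library, while the study's methods name JM8 cells as the background-matched WT of the Jarid2 null line, and each genotype was 1 line. The bulk libraries used here were of undifferentiated E14 WT, Mtf2 null and Jarid2 null cells, 4 libraries each, split over 2 series that went on to mesoderm or endoderm, and of JM8 WT cells on day 0 of an EB series.

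Naive mESCs express a network of transcription factors that includes Klf4, Esrrb, Tfcp2l1, Nr0b1 and Zfp42 on top of the core factors Pou5f1, Sox2 and Nanog. On leaving this state, cells pass through a formative stage in which the naive factors go down and Otx2, Pou3f1, Lef1 and the de novo DNA methyltransferases Dnmt3a and Dnmt3b come up, before they take on a germ layer identity. Otx2 encodes a homeobox factor that directs POU5F1 to new enhancers at this step, and NANOG opposes it by holding up the naive network.

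The 16 libraries held 202 to 347 cells each. Cells of cluster 5 had a median of 7618 unique molecular identifiers (UMIs) and 3022 genes, against 6597 UMIs and 2856 genes in the other cells. All libraries drew on the same well barcodes, and the cells of cluster 5 carried 234 of them, 67 in 2 or more libraries. The targeted genes were lower in their own null libraries than in WT but not absent. Jarid2 stood at 115 to 185 CPM (its UMIs scaled to a total of 1000000 over the pooled cells) in the 4 Jarid2 null libraries and at 215 to 594 CPM in the 4 WT libraries, and Mtf2 at 53.7 to 61.1 CPM in the Mtf2 null libraries and at 365 to 793 CPM in WT. In the undifferentiated bulk libraries labelled Jarid2 null, Jarid2 was at 289 to 318 CPM against 351 to 462 CPM in E14 WT, and Hprt, a purine salvage enzyme, was at 0.258 to 0.674 CPM against 349 to 653 CPM in the single-cell Jarid2 null libraries. By Hprt these bulk libraries did not match the line of the Jarid2 null single cells, and they are called the libraries labelled Jarid2 null throughout.

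Cluster 5 took its highest share of cells on day 4 in both mutants that contributed to it. In the Jarid2 null libraries it held 28 of 337 cells on day 0, 129 of 321 on day 4, 75 of 302 on day 7 and 19 of 264 on day 10. As shares these were 8.31% (exact binomial 95% interval 5.59 to 11.8), 40.2% (34.8 to 45.8), 24.8% (20.1 to 30.1) and 7.2% (4.39 to 11). The day 4 share lay above the intervals of the other days, and the day 0 and day 10 intervals overlapped.

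In the Mtf2 null libraries the share was 1.44% (0.469 to 3.33) on day 0, 15.1% (11.4 to 19.4) on day 4, 2.03% (0.822 to 4.15) on day 7 and 0.312% (0.00789 to 1.72) on day 10. Day 4 again lay above the intervals of the other days, and below the day 4 share of the Jarid2 null library. Of 1201 WT cells 1 fell into cluster 5, a share of 0.0833% (0.00211 to 0.463). These intervals, and all later ones on UMIs or cells, cover counting error alone; with 1 library for each genotype and day the spread between cultures was not measured, and no test between genotypes or days was made.

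Cluster 12 held 29.9% of the WT day 4 library and 24.4% of the WT day 7 library, and 5 Jarid2 null cells. Cluster 7 held 67.7% of the WT day 4 library and 4.43% of the WT day 7 library. Cluster 17 held 0.593%, 4.36%, 11.6% and 18.6% of the Jarid2 null libraries on days 0, 4, 7 and 10, so that it was highest on day 10, when cluster 5 was back near its day 0 share. At a finer clustering resolution of 3 the cells of cluster 5 did not stay together. They fell mainly into groups of 220, 352 and 183 cells, which took in 133, 128 and 43 of them. There they were thus mixed with cells of other clusters.

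**Figure D1:**
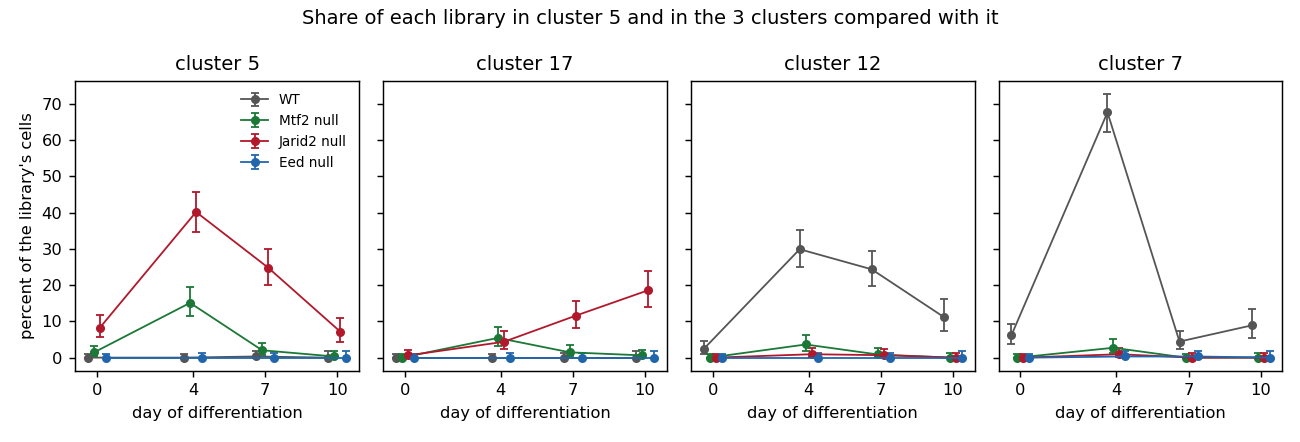
Percent of each library's cells (y axis) in cluster 5 and in clusters 17, 12 and 7 by day of differentiation (x axis), with exact binomial 95% intervals that cover counting error alone; points are slightly offset by genotype. Cluster 5 reaches 40.2% of the Jarid2 null and 15.1% of the Mtf2 null library on day 4, while the WT day 4 cells lie in clusters 7 and 12.

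Nanog and Otx2 were among the genes used by the clustering, so their levels describe cluster 5 and cannot check its label of early differentiating cells. Nanog was at 278 CPM in cluster 5 (Poisson 95% interval 258 to 298), against 216 CPM (194 to 240) in cluster 12, 110 CPM (93.9 to 127) in cluster 7 and 391 CPM (352 to 432) in cluster 17. Otx2 was at 273 CPM (254 to 294), against 416 CPM (385 to 448), 110 CPM (94.5 to 128) and 212 CPM (184 to 243) in the same order. Cluster 8, which held 223 of the 337 Jarid2 null cells of day 0, had Nanog at 250 CPM and Otx2 at 39.5 CPM. Cluster 5 thus had Otx2 above these undifferentiated cells and below cluster 12, and Nanog that did not differ from cluster 8 beyond counting error. Its Nanog stood above cluster 12 only with the 19 Jarid2 null cells of day 10 included, without which it was at 235 CPM, inside the interval of cluster 12.

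By library, Nanog in cluster 5 was 224 CPM (170 to 289) on day 0, 205 CPM (180 to 232) on day 4, 312 CPM (265 to 366) on day 7 and 940 CPM (796 to 1103) on day 10 in Jarid2 null cells, and 252 CPM (206 to 306) in Mtf2 null cells of day 4. The 19 cells of day 10 held a median of 3 Nanog UMIs and 1 cell held 30, so that this level rests on few cells. They carried 151 of the 738 Nanog UMIs of the cluster. Otx2 was 205 CPM (154 to 267), 288 CPM (259 to 320), 353 CPM (302 to 409) and 224 CPM (157 to 310) in Jarid2 null cells, and 186 CPM (147 to 233) in Mtf2 null cells of day 4. Leaving out the day 4 Jarid2 null cells moved the Nanog level of cluster 5 to 337 CPM, and leaving out any 1 of the 8 mutant libraries in turn left Otx2 between 255 and 289 CPM.

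Against the other cells of its own library, which share line, day and plate with it, cluster 5 had different marker contrasts on different days. On day 0 its Jarid2 null cells had 3.66 times the Otx2 of their neighbours (2.64 to 5.01) and Nanog that could not be told from theirs at this depth (ratio 0.972, 0.732 to 1.27). On day 4 the ratios were 1.27 (1.09 to 1.49) for Otx2 and 1.7 (1.39 to 2.09) for Nanog. On day 7 Otx2 did not differ beyond counting error (ratio 0.877, 0.736 to 1.04), and Nanog was 1.62 times higher (1.32 to 1.98). In the Mtf2 null day 4 library the ratios were 0.805 (0.625 to 1.03) for Otx2 and 1.4 (1.12 to 1.74) for Nanog. Otx2 was thus higher than in the rest of the library on days 0 and 4 in Jarid2 null cells, and Nanog was higher in all 3 libraries of days 4 and 7.

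Single cells were thinned to 2500 UMIs each to compare detection at one depth, which left out 31 cells of cluster 5. Of the remaining 284 cells, 44% had a Nanog UMI (38.2 to 50), 37.7% had an Otx2 UMI (32 to 43.6) and 13.4% had both (9.65 to 17.9). The product of the first 2 shares was 16.6%, so that both were found together less often than this product. The product comes from the same cells and has its own error, so the interval of the joint share alone does not test the difference. In Jarid2 null cells alone, the share with both was 8.26% (4.03 to 14.7) on day 4, with a product of 14.4%. On day 7 it was 16.2% (8.36 to 27.1), with a product of 16.9%. In cluster 12 both were found in 18% of cells, in cluster 1 in 17.9%, in cluster 17 in 13.7%, in cluster 7 in 7.11% and in cluster 8 in 3.91%. In cluster 4, where Nanog was at 17 CPM and Otx2 at 38 CPM, a Nanog UMI was found in 3.64% of cells and an Otx2 UMI in 5.96%, and no cell of 302 had both. At 4000 UMIs per cell both were found in 23.1% of the cells of cluster 5, with a product of 28%. Without thinning, both were found in 40.6% of its cells, with a product of 39.7%.

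**Figure D2:**
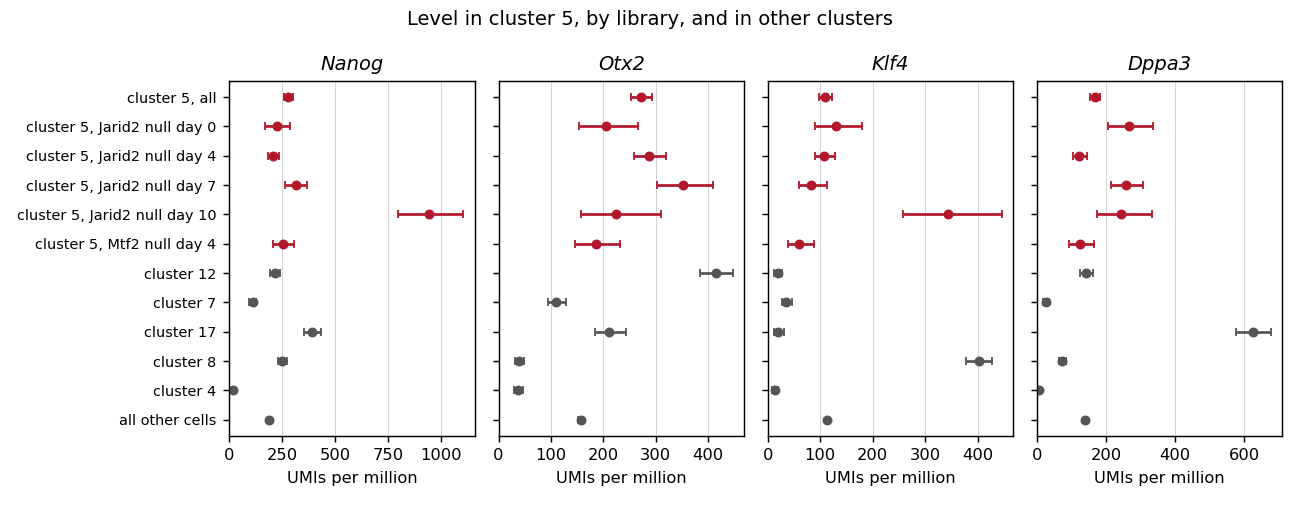
Nanog, Otx2, Klf4 and Dppa3 levels (x axis, UMIs per 1000000) in cluster 5 as a whole and by library (red) and in other clusters (grey), with Poisson 95% intervals of counting error. Nanog of the 19 Jarid2 null cells of day 10 lies at 940 CPM, cluster 12 has the highest Otx2 of the groups drawn, at 416 CPM, and Dppa3 in cluster 5 (167 CPM) is 0.267 of that in cluster 17.

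Genes entered the comparisons below where at least 25 CPM were reached in the higher group, and a ratio of 2 or more was called. Because the same genes were used to build the clusters, these calls describe cluster 5 and are no test of it. Against all other cells, 52 of 6865 genes (0.757%) were at least 2-fold higher and 456 (6.64%) at least 2-fold lower in cluster 5. Of the 52 genes, 18 were higher in cluster 5 also within each of the 4 libraries with 20 or more of its cells, and of the 456 genes 186 were lower in each. The share of all compared genes that kept one direction is not given here. The calls drew on cells of these same libraries, so that these counts are a description and no check.

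The genes that kept one direction in all 4 libraries and had the largest ratios were C330004P14Rik, Fut9, Lef1, Nexmif, Ina and Gadd45a. C330004P14Rik was at 84.6 CPM against 12.9 CPM (ratio 6.55, 5.56 to 7.69). Fut9, the fucosyltransferase that makes the SSEA-1 antigen of mESCs, was at 202 CPM against 71.2 CPM (2.83, 2.57 to 3.11). Lef1, the Wnt pathway's DNA-binding factor, was at 177 CPM against 62.8 CPM (2.81, 2.54 to 3.11). Tle4, a Groucho corepressor, was at 240 CPM against 122 CPM, a ratio of 1.97.

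The genes on the lower side were of several kinds. Pmp22, a myelin protein gene also expressed in mesenchyme, was at 2.26 CPM against 76 CPM, and Msx2, a homeobox gene downstream of BMP signals, at 2.26 CPM against 69.4 CPM. Hmga2, a chromatin protein gene of early embryos, was at 32.3 CPM against 262 CPM, and Vim, encoding the mesenchymal filament vimentin, at 41.4 CPM against 321 CPM. Wls, Igfbp4, Tagln, Crabp2, Unc5b, Podxl and Mras were also among the 12 genes with the lowest ratios. Not all of the 12 were confined to differentiated cells, as Vim was at means of 53.5 CPM in JM8 and 92.5 CPM in E14 bulk before differentiation.

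Markers of most germ layer derivatives and of extraembryonic cells were low in cluster 5. Over the 9 fibroblast and mesenchyme genes in the table the summed level was 30 CPM against 371 CPM in the other cells, over the 13 cardiac and lateral mesoderm genes 36 CPM against 417 CPM, over the 10 endothelium and blood genes 50 CPM against 1402 CPM and over the 13 extraembryonic endoderm genes 109 CPM against 650 CPM. Primitive streak genes summed to 44 CPM against 209 CPM and trophoblast genes to 40 CPM against 196 CPM. In cluster 17 these 6 lists summed to 30, 55, 135, 115, 53 and 61 CPM in the same order, so that low levels were not particular to cluster 5. The 8 definitive endoderm genes summed to 102 CPM against 188 CPM in the other cells, and to 104 CPM in cluster 17 and 72 CPM in cluster 7. The neural list summed to 199 CPM against 202 CPM, of which Olig2, a transcription factor gene of the ventral spinal cord, gave 82.7 CPM and Tubb3, a neuronal tubulin gene, 70.7 CPM, while Sox1 and Pax6, markers of early neural cells, were at 13.2 CPM and 15.4 CPM.

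The naive factors were described within libraries, where line and day are shared. In the Jarid2 null day 7 library, 12 of 15 compared naive genes were at least 2-fold higher in cluster 5 than in the other cells and 1 was lower, with a median log2 ratio of 1.41 against -0.05 over all 7073 genes, of which 3.9% were higher and 10.2% lower. Nr5a2, an orphan receptor gene, was at 94.7 CPM against 18.4 CPM (ratio 5.14, 3.12 to 8.64), and Nr0b1, which encodes the naive cofactor DAX1, at 341 CPM against 78.7 CPM (4.33, 3.39 to 5.55). Klf4 was at 82.6 CPM against 30.5 CPM (2.71, 1.72 to 4.26), and Fgf4, the ligand by which mESCs drive their own exit, at 135 CPM against 46.1 CPM. The exception was Tbx3, at 24.2 CPM against 61.7 CPM. Against the cluster 17 cells of this library alone, 2 of 15 naive genes were higher and 1 lower, with a median log2 ratio of 0.10. The naive list summed to 3816 CPM in cluster 5 and 4112 CPM in cluster 17 there. High naive genes on day 7 were thus not particular to cluster 5.

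In that library the formative list ran the other way, with 2 of 22 compared genes at least 2-fold higher, 11 lower and a median log2 ratio of -0.97. Dnmt3b was at 421 CPM against 1112 CPM (ratio 0.379, 0.327 to 0.438) and Pou3f1 at 98.8 CPM against 294 CPM. Fgf5, the ligand gene that marks the primed epiblast, was at 12.1 CPM against 53.2 CPM. The genes that were higher were Tcf15, a helix-loop-helix factor gene of the exit from naive pluripotency, at 121 CPM against 38.3 CPM, and Etv4, an FGF target, at 34.3 CPM against 9.22 CPM. The other cells of this library lay mostly in cluster 1 (90 cells), where Otx2 and Nanog were also expressed, and in clusters 11 and 17 (35 cells each).

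On day 0 Klf4, Tcf15 and Pou3f1 stood the other way round. There 0 of 15 compared naive genes were at least 2-fold higher and 1 was lower, with a median log2 ratio of -0.36 against 0.01 over all 6526 genes (3.78% higher, 4.72% lower). Klf4 was at 129 CPM in the 28 cluster 5 cells against 364 CPM in the 309 others (ratio 0.354, 0.244 to 0.498), and Gbx2, a LIF target that sustains self-renewal, at 30.4 CPM against 187 CPM (0.163, 0.0699 to 0.323). Tcf15 was also lower, at 56.9 CPM against 211 CPM, and Olig2 at 98.7 CPM against 255 CPM. The formative list had 2 of 16 genes higher and 3 lower, with a median log2 ratio of -0.02. Otx2 was higher, as was Pou3f1 (186 CPM against 75 CPM). Dppa3, a maternal factor gene and marker of primordial germ cells, was also higher, at 266 CPM against 97.4 CPM. So was Hesx1, a homeobox repressor gene of the anterior embryo, at 121 CPM against 26.5 CPM (ratio 4.59, 2.94 to 7.01).

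In the Jarid2 null day 4 library no compared naive, core or formative gene passed 2-fold in either direction, with 0.724% of 6634 genes higher and 4.05% lower, and the median log2 ratios were -0.04, 0.36 and 0.32 for the 3 lists. Of 7 immediate early genes 5 were at least 2-fold lower, among them Fos, at 7.48 CPM against 34.1 CPM, and Junb, at 33.2 CPM against 70.5 CPM. Of 21 glycolysis and hypoxia genes 4 were lower, among them Ddit4, a stress-induced inhibitor of mTOR, at 97.2 CPM against 363 CPM (ratio 0.268, 0.217 to 0.328). Of 12 p53 targets 3 were lower, among them Cdkn1a, the cell cycle inhibitor p21, at 76.4 CPM against 193 CPM (0.395, 0.308 to 0.504).

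The Mtf2 null day 4 library gave the same direction for the stress genes, with Ddit4 at 108 CPM against 303 CPM and Cdkn1a at 125 CPM against 256 CPM in cluster 5. There 3 of 15 naive genes were at least 2-fold higher and 1 lower, with 2.16% of 6632 genes higher and 5.01% lower. Nr0b1 was at 272 CPM against 133 CPM, Lef1 at 48.9 CPM against 22.4 CPM and Olig2 at 90.6 CPM against 38.7 CPM. Cells of cluster 5 also had more gene UMIs for each UMI of spiked-in RNA than the other cells of their library. In Jarid2 null cells the medians were 343 against 325 on day 0, 116 against 84.3 on day 4 and 283 against 229 on day 7. In Mtf2 null cells of day 4 they were 117 against 92.5. Cluster 17 cells had medians of 131, 281 and 132 in the last 3 of these libraries (14, 35 and 18 cells), so that this was not particular to cluster 5. The part of RNA content or cell quality in these differences was not tested.

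Cluster 17 held 100 Jarid2 null and 25 Mtf2 null cells, and was after cluster 8 the most like cluster 5 over 10135 genes (root mean square difference of 0.367 in log2 CPM, against 0.35 for cluster 8 and 0.459 for cluster 12). Between clusters 5 and 17, 120 of 6605 genes (1.82%) were at least 2-fold higher and 201 (3.04%) lower in cluster 5. The formative list had 7 of 15 genes higher and 0 lower, with a median log2 ratio of 0.80 against -0.03 over all genes. The germline list had 0 of 13 higher and 7 lower, with a median of -1.07.

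Dnmt3b was at 580 CPM in cluster 5 and 108 CPM in cluster 17 (ratio 5.36, 4.4 to 6.61), and Dnmt3a at 189 CPM and 54 CPM (3.5, 2.63 to 4.75). Tcf15 was at 179 CPM and 39.5 CPM, Pou3f1 at 123 CPM and 38.5 CPM, and Tdgf1, the coreceptor of Nodal, at 870 CPM and 280 CPM. The naive list was mixed, with 3 of 16 genes at least 2-fold higher, 1 lower and a median log2 ratio of -0.28. Klf4 was 5.54 times higher in cluster 5 (3.49 to 9.34), while Esrrb, an orphan receptor gene of the naive network, was at 109 CPM and 206 CPM (0.53, 0.441 to 0.638). Outside the lists Eras, an embryonic RAS gene, was 7.38 times higher (4.24 to 14). In the other direction Dppa3 was at 167 CPM in cluster 5 with a ratio of 0.267 (0.236 to 0.303), Prdm1, the repressor gene that specifies primordial germ cells, at 31.2 CPM and 115 CPM, and Kit, the receptor of stem cell factor, at 46.6 CPM and 132 CPM.

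The one library with at least 20 cells of both clusters was Jarid2 null day 7, with 75 and 35 cells. There the formative list had 9 of 16 genes higher and 0 lower and the germline list 0 of 11 higher and 5 lower, where 7.57% of 6987 genes were higher and 9.79% lower. Dnmt3b was at 421 CPM in cluster 5 and 155 CPM in cluster 17 (ratio 2.72, 1.9 to 3.99), Tcf15 at 121 CPM and 12.9 CPM (9.36, 3.05 to 46.7), and Dppa3 at 258 CPM and 693 CPM (0.372, 0.293 to 0.472). Prdm1 was at 32.3 CPM and 159 CPM (0.202, 0.105 to 0.373). Line, day and library were held in common here, but these cells are part of the whole clusters, so that a shared direction is a description and no check. These 4 genes had the same direction as between the whole clusters. The markers did not: Otx2 was at 353 CPM and 422 CPM (0.836, 0.649 to 1.08), with an Otx2 UMI in 39.7% and 54.8% of thinned cells, and Nanog at 312 CPM and 297 CPM (1.05, 0.787 to 1.42), neither beyond counting error.

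Against cluster 12, of which 208 of 228 cells were WT, 169 of 6834 genes (2.47%) were at least 2-fold higher and 423 (6.19%) lower in cluster 5. Of 15 naive genes 3 were higher and 1 lower, and of 19 formative genes 2 were higher and 4 lower. Klf4 was at 109 CPM and 18.7 CPM (ratio 5.85, 4.03 to 8.77), Nr0b1 at 335 CPM and 79 CPM (4.24, 3.53 to 5.14) and Zfp42, the zinc finger gene also called Rex1, at 100 CPM and 297 CPM (0.338, 0.29 to 0.393). Of 12 Nodal pathway genes 5 were lower and 0 higher. Lefty1, a target and inhibitor of Nodal, was at 72.2 CPM and 216 CPM (0.334, 0.279 to 0.399). Sycp3, a gene of the meiotic chromosome axis that DNA methylation silences, was at 38.4 CPM and 189 CPM (0.203, 0.161 to 0.255).

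On matched days Klf4, Nr0b1 and Zfp42 had the same directions. Over all genes, 5.01% were at least 2-fold higher and 8.29% lower on day 4, and 6.46% and 14.7% on day 7. The naive list had 5 of 15 genes higher and 2 lower on day 4 and 4 higher and 3 lower on day 7. The formative list had 3 of 19 higher and 5 lower on day 4, with a median log2 ratio of -0.57, and 3 of 17 higher and 3 lower on day 7. Between Jarid2 null cells of cluster 5 and WT cells of cluster 12, Klf4 was at 108 CPM and 9.34 CPM on day 4 and at 82.6 CPM and 35.2 CPM on day 7. Nr0b1 was at 342 CPM and 84.1 CPM on day 4 and at 341 CPM and 67.8 CPM on day 7. Zfp42 was at 101 CPM and 244 CPM on day 4 and at 103 CPM and 432 CPM on day 7. Lefty1 was lower on day 4, at 77.3 CPM and 291 CPM, and not on day 7, at 46.4 CPM and 47.7 CPM.

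Several of the largest ratios against cluster 12 belonged to genes that also separated the lines. Ranked first was C330004P14Rik, at 84.6 CPM and 1.21 CPM (ratio 70.1, 19.2 to 583), whose levels by line are not given here. Hprt was at 597 CPM in cluster 5 and 17.5 CPM in cluster 12 (ratio 34.1, 23.7 to 51.1). Olig2 was at 82.7 CPM with no UMI in cluster 12, at least 45.7-fold higher with a floor of 3 UMIs over the cluster (the exact 95% lower limit of the ratio was 36.9). Olig1, the neighbour of Olig2, was at 75.2 CPM and 3.62 CPM, and Magohb, an exon junction protein gene, at 104 CPM and 14.5 CPM. Lower were the imprinted noncoding RNAs Rian, at 1.5 CPM and 153 CPM, and Meg3, at 14.3 CPM and 535 CPM, and the Y-linked translation factor gene Eif2s3y, at 21.1 CPM and 170 CPM. Rplp1, at 4065 CPM and 498 CPM, and Rps3a3, a ribosomal protein pseudogene at 214 CPM and 1120 CPM, have near-identical copies and are uncertain, and Rps3a3 was chosen after its values were seen.

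Hprt, Eif2s3y and Olig2 differed between the lines on every day. Hprt was at 0.467 to 3.35 CPM in the 4 WT single-cell libraries, at 349 to 653 CPM in the Jarid2 null and at 263 to 618 CPM in the Mtf2 null libraries. Eif2s3y was at 126 to 189 CPM in WT, at 62 to 103 CPM in Mtf2 null and at 2.77 to 11 CPM in Jarid2 null libraries. Olig2 was at 0 to 0.715 CPM in WT and at 12.7 to 242 CPM in Jarid2 null libraries, highest on day 0. Of the 251 Jarid2 null cells of cluster 5, 218 had an Hprt UMI and 0 had an Eif2s3y UMI, and of its 63 Mtf2 null cells 58 had an Hprt UMI and 31 an Eif2s3y UMI. The lone WT cell of cluster 5 had 1790 UMIs, of which 0 were Hprt and 1 was Meg3.

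The 5 cells labelled Jarid2 null in cluster 12 differed from those of cluster 5 in these genes. All 5 had a Meg3 UMI, 4 had an Eif2s3y UMI and 3 had an Hprt UMI, with 19 Meg3 and 3 Hprt UMIs in all at a median of 7235 UMIs per cell. In cluster 5 a Meg3 UMI was found in 8 of 251 Jarid2 null cells.

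JM8 WT cells, the background-matched WT of the Jarid2 null line, carried several of the same differences from E14 in bulk. In the JM8 libraries of day 0, Hprt was at 127 and 121 CPM in 2 runs, Olig2 at 16.6 and 15.7 CPM, Olig1 at 28.5 and 29.4 CPM and Magohb at 10.2 and 13 CPM. The means over 4 undifferentiated E14 WT libraries, in a table that was normalized separately, were 0.316, 0.0708, 0.967 and 1.16 CPM. Eif2s3y was at 2.25 and 3.14 CPM in JM8 and at a mean of 70.7 CPM in E14. Other genes ran the other way. Ccnb1ip1, among the 12 lowest against cluster 12 (7.9 CPM and 71.2 CPM), was at means of 4286 CPM in JM8 and 26 CPM in E14. Klhl13 was at 21.6 CPM in Jarid2 null day 4 cells of cluster 5, and at means of 262 CPM in JM8 and 17.5 CPM in E14. Klf4 and Nqo1, which were 5.85 and 6.22 times higher in cluster 5 than in cluster 12, were at means of 169 and 29.3 CPM in JM8 and 145 and 29.5 CPM in E14 before differentiation. Other genes described above did differ between these lines, with Zfp42 at means of 100.1 CPM in JM8 and 385 CPM in E14, Sycp3 at 5.5 and 17.5 CPM, Lef1 at 22.2 and 1.52 CPM and Otx2 at 13.6 and 1.95 CPM. Of the 169 genes at least 2-fold higher in cluster 5 than in cluster 12, 147 could be set against both bulk tables. Of these, 72 were at least 2-fold higher in JM8 and 3 lower, with a median log2 difference of 0.94. Of the 423 genes at least 2-fold lower in cluster 5, 345 could be set against both. Among them 68 were higher in JM8 and 33 lower, with a median log2 difference of 0.31. Of all 9617 genes that reached 10 CPM in either line, 1824 were higher and 318 lower, with a median log2 difference of 0.47. JM8 levels thus ran above those of E14 over all genes. Against this background the median of the genes higher in cluster 5 lay above, and that of the genes lower in cluster 5 lay below. Genotype, line of origin and library cannot be told apart in the comparisons of cluster 5 with clusters 12 and 7.

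**Figure D3:**
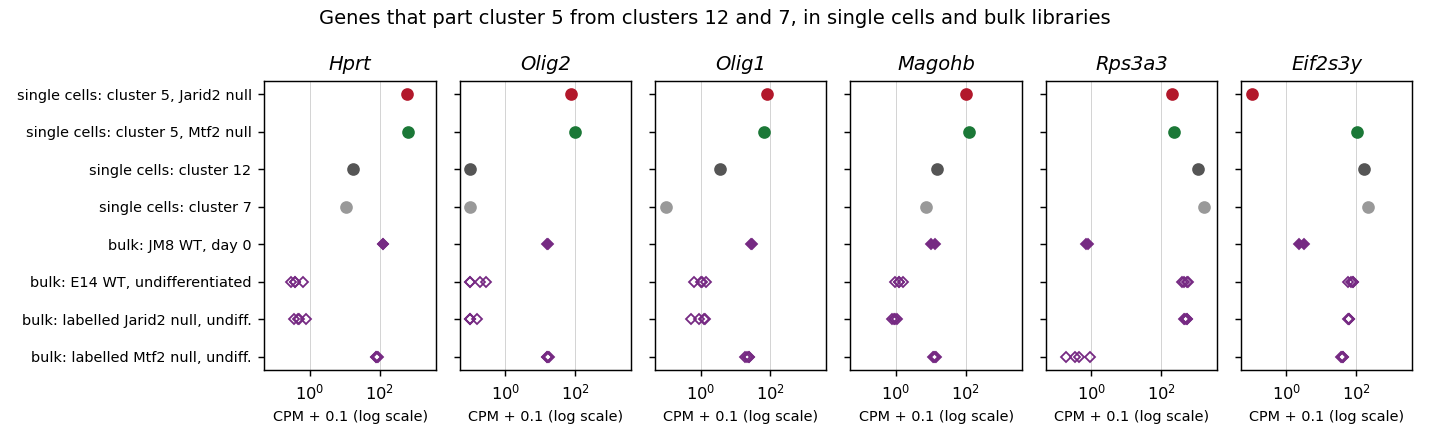
Levels of 6 genes that differ between cluster 5 and clusters 12 and 7 (x axis, counts per 1000000 plus 0.1 on a log scale) in pooled single cells (circles) and in bulk libraries or runs (diamonds), whose tables were normalized separately. Hprt, Olig2, Olig1 and Magohb are high in cluster 5, in JM8 WT and in the bulk libraries labelled Mtf2 null, and low in E14 WT and in the bulk libraries labelled Jarid2 null.

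Cluster 7, the main WT group of day 4, was farther from cluster 5, with 975 of 6817 genes (14.3%) at least 2-fold higher and 783 (11.5%) lower in cluster 5. Its cells had a median of 4786 UMIs and 2017 genes. Of 31 S phase genes 14 were higher and 0 lower in cluster 5, with a median log2 ratio of 0.92 against 0.12 over all genes. Of 16 formative genes 9 were higher and 0 lower, with Lef1 at 177 CPM and 11.4 CPM, and Sgk1, a PI3K-dependent kinase gene, was at 478 CPM and 35.5 CPM. Of 21 glycolysis and hypoxia genes 7 were lower and 0 higher. Ddit4 was at 81.2 CPM and 471 CPM (ratio 0.172, 0.148 to 0.201), Bnip3, a mitophagy gene induced by low oxygen, at 446 CPM and 1188 CPM (0.376, 0.349 to 0.404), and Gadd45b and Gadd45g, genes of the stress response, at 7.52 CPM and 5.64 CPM against 181 CPM and 121 CPM. The part of depth and cell quality in this contrast was not tested.

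Within cluster 5 the Jarid2 null cells differed between days. From 28 cells of day 0 to 129 cells of day 4, 6 of 16 formative genes were at least 2-fold higher and 0 lower, where 6.8% of 6585 genes were higher and 5.68% lower. Dnmt3l, the cofactor of the de novo methyltransferases, was at 34.2 CPM and 196 CPM, Tcf15 at 56.9 CPM and 273 CPM (ratio 4.8, 2.87 to 8.68) and Lef1 at 49.3 CPM and 217 CPM (4.4, 2.53 to 8.37). Hesx1 was at 121 CPM and 21.6 CPM, and Socs3, the feedback inhibitor of LIF signalling, at 152 CPM and 34.9 CPM. The naive list had 0 of 15 genes higher and 3 lower.

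From day 4 to the 75 cells of day 7, 4.34% of 6568 genes were at least 2-fold higher and 3.52% lower. Zic2, a zinc finger gene of the epiblast, was at 41.5 CPM and 143 CPM (ratio 3.44, 2.37 to 5.05), and Id1, a BMP target, at 137 CPM and 30.2 CPM (0.221, 0.121 to 0.374). Olig1 was at 106 CPM and 22.2 CPM and Eras at 132 CPM and 38.3 CPM. Lars2, a mitochondrial leucyl-tRNA synthetase gene, was at 80.6 CPM and 466 CPM. It was at 97 CPM and 470 CPM in the other Jarid2 null cells of the same days. Day and library cannot be told apart here.

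Jarid2 null and Mtf2 null cells of cluster 5 were compared on day 4, the one day with 20 or more of each (129 and 50), and 3.86% of 6500 genes were at least 2-fold higher and 4% lower in Jarid2 null cells. Mtf2 was at 460 CPM and 48.9 CPM (ratio 9.4, 6.03 to 15.5) and Jarid2 at 138 CPM and 548 CPM (0.252, 0.205 to 0.309). Lef1 was at 217 CPM and 48.9 CPM (4.43, 2.81 to 7.37) and Tcf15 at 273 CPM and 103 CPM (2.66, 1.92 to 3.76). Klhl13, an X-linked ubiquitin ligase adaptor gene, was at 21.6 CPM and 438 CPM (0.0493, 0.0314 to 0.0747), and Stmn2, a neuronal microtubule gene, at 125 CPM and 480 CPM. Dnmt3l was at 196 CPM and 680 CPM. Of 15 naive genes 1 was at least 2-fold higher and 1 lower, and of 17 formative genes 2 were higher and 1 lower. The Y-linked Ddx3y, at 1.66 CPM and 117 CPM, separated the lines.

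Among the PRC2 subunits, Ezh2, the methyltransferase, was at 202 CPM in cluster 5 and at 165 CPM, 136 CPM and 302 CPM in clusters 12, 7 and 17. Suz12 was at 294 CPM and at 284 CPM, 323 CPM and 410 CPM. Phf19, a paralog of Mtf2, was at 11.3 CPM in cluster 5 and 37.4 CPM in cluster 17, and Jarid2 itself at 246 CPM in cluster 5, which mixes 138 to 187 CPM in Jarid2 null cells of days 0 to 7 with 548 CPM in Mtf2 null cells of day 4.

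The bulk libraries gave the one test with replicates. Between the 4 libraries labelled Jarid2 null and 4 E14 WT libraries, edgeR's quasi-likelihood test called 98 of 17796 genes higher (0.551%) and 92 lower (0.517%) at an adjusted p under 0.001 and more than 2-fold. Of the 169 genes at least 2-fold higher in cluster 5 than in cluster 12, 162 were tested, and 0 were called higher and 6 lower. Of the 423 lower genes 406 were tested, with 11 called lower and 6 higher. The median log2 difference in bulk was -0.09 for the first and 0.14 for the second, against -0.01 over all genes tested.

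For the markers, Nanog was at 296 to 323 CPM in the libraries labelled Jarid2 null and at 386 to 466 CPM in WT, with no overlap. Its log2 difference was -0.46 ± 0.08 (SE; adjusted p of edgeR 0.00157), short of 2-fold and of the threshold of 0.001. Otx2 was at 1.16 to 2.06 CPM and 1.5 to 2.6 CPM, with a log2 difference of -0.31 ± 0.26 (adjusted p of edgeR 0.453). Jarid2 itself differed by -0.41 ± 0.10 (adjusted p of edgeR 0.00914) and Hprt by 0.40 ± 0.39 (adjusted p of edgeR 0.597), with all 8 libraries under 1 CPM. The study describes these libraries as technical duplicates, so that the p-values measure the spread between libraries and not between cultures. These libraries lack the Hprt level of the Jarid2 null single cells, so that a bulk test of that line was not made here.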

How the data were processed

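Single cells were sorted into plates and sequenced with UMIs. The authors aligned reads to GRCm38 with Bowtie2 and counted with HTSeq, and the deposited UMI counts and cluster assignments (Seurat, resolution 2.5, after cells under 500 genes were removed) were used as given. Bulk estimated counts were made by the authors with Salmon and were rounded here. The deposited EB signal is counts that the authors divided by size factors, with 2 runs per sample, rescaled here to CPM.

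UMIs were summed per group and scaled to CPM. Genes with 25 CPM or more in the higher group were compared, and 2-fold ratios called. Intervals were exact at 95%, for counting error only. Bulk libraries (9883730 to 16365806 counts) were tested with edgeR 4.0.16 (TMM, minimum count 10; adjusted p under 0.001 and over 2-fold), with DESeq2 1.42.0 as an alternative, after tests on simulated data. The design took the bulk Jarid2 null libraries for the line of the single cells, which Hprt did not bear out.

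Named genes were the markers, the targeted genes, list members at 25 CPM or more, the 12 largest ratios in each direction at 50 CPM or more (against all other cells, in the same direction in every library with 20 or more cells of cluster 5), and the 6 largest at 100 CPM or more for days and genotypes. Members and lists were chosen with earlier results of these data known. Doublets were not called here. Columns of the authors' own comparisons were not used. The values of 1 gene are not reported here.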

Additional observations from a re-analysis of the deposited data

How the results depend on the processing

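With 1 library per genotype and day, the single-cell values have no replicate check. Against all other cells, 79 genes were higher by the mean of per-cell CPM. With a filter at 10 CPM, 105 were higher and 1019 lower, and with none 966 and 2688. Against cluster 12 these filters gave 324 and 907, then 769 and 2227, and against cluster 17 they gave 301 and 459, then 825 and 2774. Against cluster 7 they gave 1257 lower at 10 CPM, and 2139 higher and 2325 lower with no filter. Nanog ranged from 234.92 to 337.28 CPM when the cluster 5 cells of 1 of 8 mutant libraries were left out, the lowest without Jarid2 null day 10 and the highest without Jarid2 null day 4. Leaving out the 4 libraries with fewer than 20 such cells was chosen after seeing the data. Cells with both markers were 40.6% without thinning and 23.1% at 4000 UMIs.

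In bulk, 220 genes were higher and 144 lower with no filter, 3 and 11 in the mesoderm series alone, 29 and 42 in the endoderm series alone, and 1849 and 1463 at an adjusted p under 0.05 with no fold limit. Leaving out 1 library gave 64 to 108 higher and 69 to 82 lower, with 64 without replicate 1 of the endoderm series labelled Jarid2 null. DESeq2 called 120 and 104. The replicate block gave 90 and 83. Deviations of same-numbered WT and labelled Jarid2 null libraries correlated at 0.366 and 0.305, those with Mtf2 null at -0.037 to -0.285, so the numbers were not taken as pairs. No direction reversed under the alternatives run. Of the named genes, Ina, Gadd45a, Gstp2 and Phf11d fell below 2-fold against all other cells in at least 1 alternative. The causes were not tested.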
